A study of Mus musculus with 12 samples.

Results

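A group of 10 genes that mark or maintain hematopoietic stem and progenitor cells was followed through bulk RNA-seq of myeloid-derived suppressor cells (MDSCs). They comprise 7 transcription factors (Hoxa9, Hlf, Meis1, Erg, Bcl11a, Gata2, and Ikzf2) and 3 surface proteins (Kit, Cd34, and Flt3). They were chosen by symbol, and all 10 were found among the 35303 symbols of the table and among the 17676 with enough counts to be tested. The cells came from the bone marrow of wild-type female C57BL/6 mice aged 6 to 10 weeks. The marrow was grown for 3 days with IL-6 and GM-CSF (40 ng/ml each), cytokines that drive myeloid growth, and CD11b+Gr1+ cells were then purified. The 3 groups, of 4 libraries each, were MDSC, the cells without particles; MDSC-NP-Blk, the cells clicked to blank nanoparticles (NPs) of the polymer PLGA; and CITED, the cells clicked to the same kind of NP loaded with rapamycin, an mTOR inhibitor. Before RNA was taken, all cells spent 24 hours in IL-6 (40 ng/ml). The labels name the CNS as the tissue, whereas the methods describe cultured marrow, and whether the unconjugated cells carried the azido sugar used for the attachment is not stated.

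Blood cells arise from rare stem cells that pass through progenitors with ever narrower choices, and the factors studied here keep stem cells self-renewing or prime progenitors for a lineage. Their transcripts are known to fade as granulocytes and monocytes mature. A culture started from whole marrow can also hold cells that keep some of these genes for other reasons, since mast cells and basophils depend on Gata2 and mast cells on Kit, dendritic cell precursors carry Flt3, and regulatory T cells carry Ikzf2.

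With the rapamycin NPs, transcripts of Hoxa9, Hlf, Bcl11a, Erg, and Ikzf2 fell, by 1.6-fold (Erg) to 3.44-fold (Bcl11a) against MDSC. Kit, Gata2, and Flt3 stood highest with blank NPs, but Flt3 did not pass the test in any comparison, nor did Cd34 and Meis1. Below, a gene passed the test at an adjusted p under 0.05 (edgeR quasi-likelihood test, Benjamini-Hochberg adjustment over all genes tested), and it was called when its log2 fold change also reached 1 in size, the limits the study used. In CITED against MDSC, 3 of the 10 genes were called lower (6.7% of all genes tested) and 5 passed as lower (22.2% of all genes), while 0 were called higher (3.28%) and 0 passed as higher (22.2%). The median log2 fold change of the 10 genes was -0.41, beside -0.05 over all genes tested. In MDSC-NP-Blk against MDSC, 0 were called lower (2.86% of all genes) or higher (1.88%), 1 passed as lower (18.6%), and 2 passed as higher (19.9%), with a median of 0.07 beside -0.03. In CITED against MDSC-NP-Blk, which differ in the rapamycin load, 2 were called lower (2.0%) and 7 passed as lower (11.4%), while 0 were called higher (0.651%) and 0 passed as higher (10.5%), with a median of -0.68 beside 0.0. At an unadjusted p under 0.05, 5 were lower and 0 higher in CITED against MDSC, 1 and 3 in MDSC-NP-Blk against MDSC, and 8 and 0 in CITED against MDSC-NP-Blk, and DESeq2 called the same numbers as edgeR. The comparisons share groups, so their counts are not independent of each other.

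**Figure D1:**
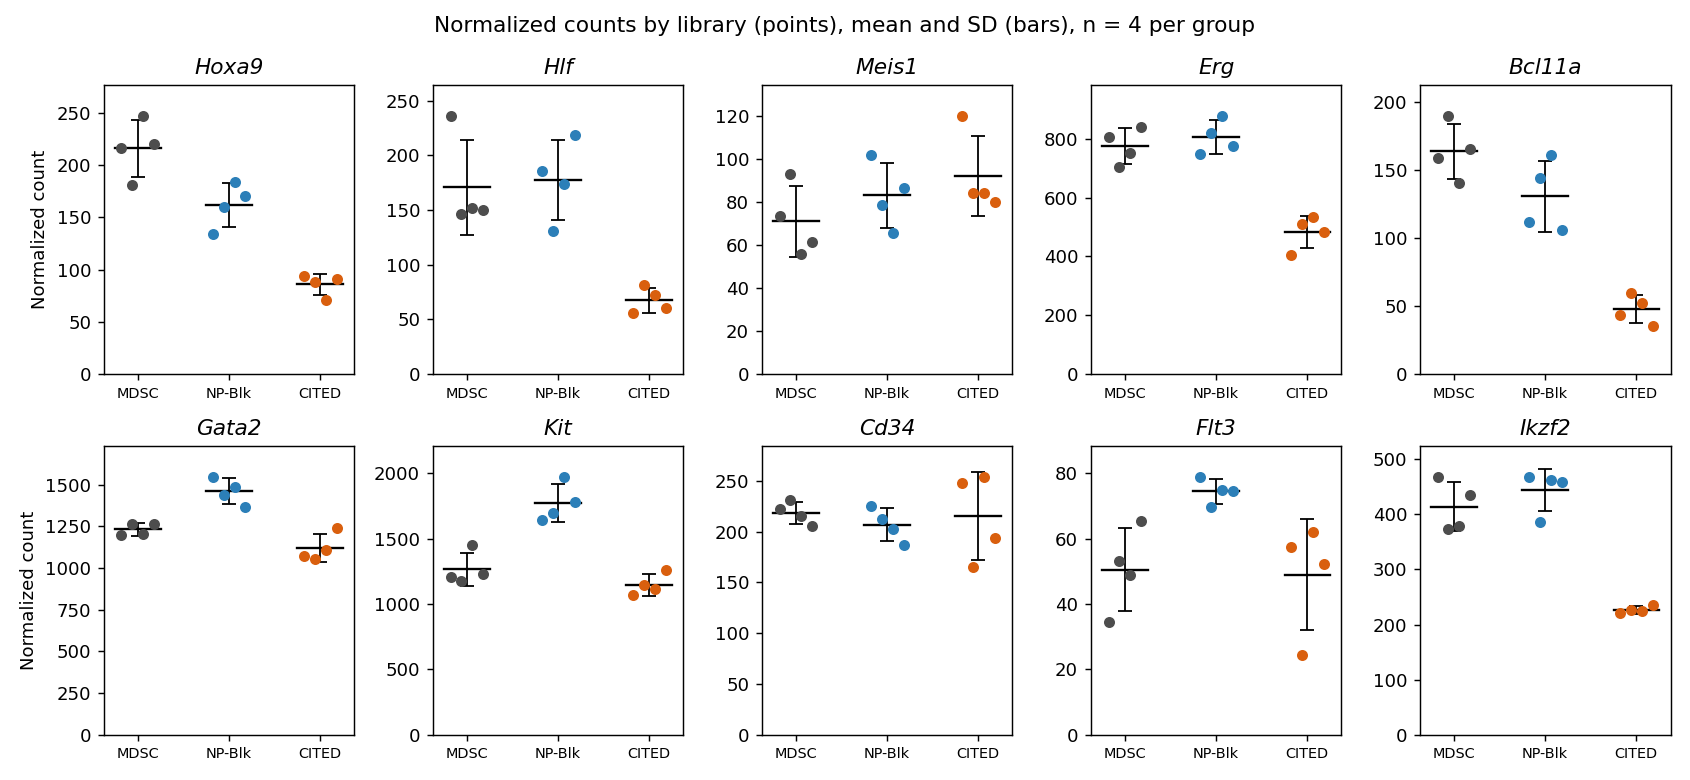
Normalized counts (vertical axes, each starting at 0) of the 10 genes in the MDSC, MDSC-NP-Blk, and CITED libraries; points are libraries, and bars give the mean and SD. For Hoxa9, Hlf, Erg, Bcl11a, and Ikzf2 the CITED points lie below all other points, and for Kit, Gata2, and Flt3 the MDSC-NP-Blk points lie above all others.

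Library totals ran from 20604809 to 37855478 counts, the deepest being replicate 2 of MDSC-NP-Blk. Values are given as normalized counts, that is, counts scaled for library size and composition to the mean library of 24589902 counts. The composition factors differed between groups, from 1.118 to 1.148 in MDSC, 0.9381 to 0.9465 with blank NPs, and 0.9214 to 0.9439 in CITED. Expression also followed transcript length differently: the Spearman correlation across genes between length and expression relative to the mean library, which treats genes as points and not as replicates, was 0.217 to 0.347 in MDSC libraries, -0.421 to 0.0915 with blank NPs, and -0.342 to -0.188 in CITED. Values without the composition factors, or with a correction for length, are therefore given where they change a result. The MDSC-NP-Blk libraries were uneven: replicates 1 and 4 (-0.421 and -0.244) lay apart from replicates 2 and 3 (-0.0457 and 0.0915). The chi-square per degree of freedom between the counts of 2 libraries was 5.69 and 5.91 within these pairs. Across them it was 15.7 to 21.8. The cause was not tested, and the fit treats these libraries as equal replicates. The lowest count behind any of the 10 genes was 20 (Flt3 in CITED), so all lay above the 3 counts taken as the limit of detection. Counts are from whole cultures, in which fewer cells of a type and less RNA per cell cannot be told apart.

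The defining MDSC markers were abundant. Itgam, which encodes CD11b, averaged 51829 ± 1470 (SD, n = 4) normalized counts in MDSC, 61243 ± 4530 with blank NPs, and 69849 ± 1410 in CITED. Ly6g, the granulocytic Gr1 antigen, averaged 3924 ± 104, 4603 ± 433, and 4561 ± 137 in the same order. Ly6c2, the other Gr1 antigen, averaged 25635 ± 510, 33581 ± 478, and 20180 ± 1290, and S100a8, a calprotectin subunit of neutrophils and monocytes, averaged 262934 ± 15900, 330443 ± 12300, and 262074 ± 23400. The highest normalized count of any of the 10 stem and progenitor genes in a library was 1974, for Kit with blank NPs.

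On the scale of CPM (counts scaled to a common library size) per kilobase of the canonical transcript, which allows genes to be compared, Gata2 was the highest of the 10 in MDSC at 14.0 ± 0.425 (SD, n = 4). Erg followed at 9.92 ± 0.782 and Kit at 9.78 ± 0.964, with ranges that overlapped each other but not that of Gata2. Cd34 at 3.59 ± 0.18 and Hoxa9 at 2.73 ± 0.34 came next, each apart from its neighbors. The lower levels ran from Ikzf2 (1.79 ± 0.195) through Hlf (1.19 ± 0.303), Bcl11a (1.07 ± 0.133), and Meis1 (0.856 ± 0.198) to Flt3 (0.56 ± 0.141), and each of these overlapped the next. Gata2 thus lay above 78.6% of 17648 genes and Flt3 above 37.6%. In MDSC-NP-Blk, Kit at 13.7 ± 1.13 stood clear of Erg at 10.3 ± 0.729, and Gata2 led at 16.6 ± 0.88. In CITED, Gata2 (12.7 ± 0.959), Kit (8.86 ± 0.625), Erg (6.18 ± 0.713), and Cd34 (3.54 ± 0.708) kept places with no overlap between neighbors, while Bcl11a came last at 0.313 ± 0.0679, below Hlf at 0.473 ± 0.0799. Per kilobase of the longest annotated transcript, the MDSC levels of Cd34 (1.48), Meis1 (0.382), and Gata2 (10.9) were lower, and several places rest on the transcript taken. On that scale Cd34 lay below Hoxa9 (2.73) and Ikzf2 (1.76) in MDSC, Meis1 lay below Flt3 (0.514), and with blank NPs Kit (13.5) lay above Gata2 (12.9).

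**Figure D2:**
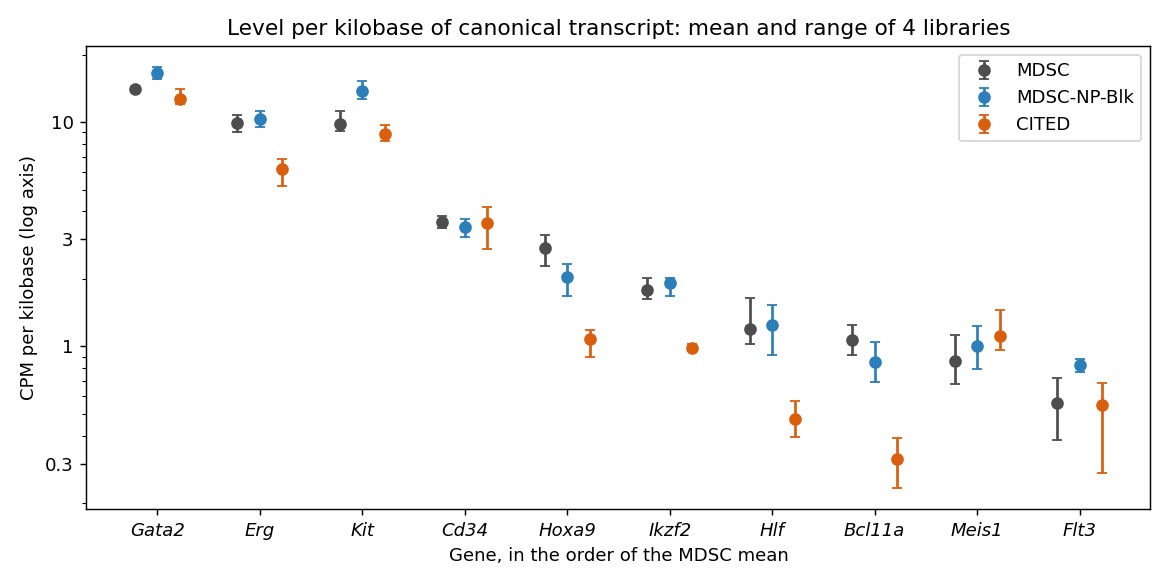
Level of each gene in CPM per kilobase of its canonical transcript (vertical axis, log scale), in the order of the MDSC means; points are means of 4 libraries and bars run from the lowest to the highest library. On this scale Gata2 leads in all groups, and the CITED bars of Erg, Hoxa9, Ikzf2, Hlf, and Bcl11a lie below those of the other groups without overlap.

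The start regions of 4 of the genes are shown because these genes moved in different ways: Hoxa9 fell with either NP, Hlf and Erg with the rapamycin NPs, and Kit rose with blank NPs. Each window holds the bases before the start of the canonical transcript (GENCODE release M39, genome build GRCm39), without annotated exon bases, read 5′ to 3′ on the strand of the gene. They are chr6:52204351-52204600 on the minus strand for Hoxa9, chr11:90281762-90282011 on the minus strand for Hlf, chr16:95260218-95260457 on the minus strand for Erg, and chr5:75735326-75735575 on the plus strand for Kit. Capitals mark matches to known binding patterns, sought on both strands. For GATA factors the pattern was AGATAA. For ETS factors, the family of Erg, it was CCGGAA. For MEIS factors, the family of Meis1, it was TGACAG. The pattern of PBX and HOX proteins bound side by side was TGATTNAT, where N stands for any base. The last was the E-box of basic helix-loop-helix factors, CACGTG. No pattern contains another.
Hoxa9: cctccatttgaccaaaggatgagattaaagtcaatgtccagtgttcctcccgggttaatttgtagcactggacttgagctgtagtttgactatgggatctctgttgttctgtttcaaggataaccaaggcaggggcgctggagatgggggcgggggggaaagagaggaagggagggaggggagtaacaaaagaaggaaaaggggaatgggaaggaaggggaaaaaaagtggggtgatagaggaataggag
Hlf: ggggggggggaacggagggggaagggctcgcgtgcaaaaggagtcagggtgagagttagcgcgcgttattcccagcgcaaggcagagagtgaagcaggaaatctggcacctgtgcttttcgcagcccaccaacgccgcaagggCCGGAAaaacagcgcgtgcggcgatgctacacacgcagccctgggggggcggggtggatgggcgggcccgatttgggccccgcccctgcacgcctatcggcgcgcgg
Erg: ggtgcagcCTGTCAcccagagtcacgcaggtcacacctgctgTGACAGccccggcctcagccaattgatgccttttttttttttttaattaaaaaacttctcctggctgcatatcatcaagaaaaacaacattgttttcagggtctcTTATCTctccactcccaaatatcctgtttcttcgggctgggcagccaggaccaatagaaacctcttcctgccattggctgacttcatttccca
Kit: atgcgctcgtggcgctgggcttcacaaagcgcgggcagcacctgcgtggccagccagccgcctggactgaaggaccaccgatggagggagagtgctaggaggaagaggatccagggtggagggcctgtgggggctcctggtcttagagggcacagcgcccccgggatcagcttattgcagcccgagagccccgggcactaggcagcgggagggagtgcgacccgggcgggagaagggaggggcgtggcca

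The Hlf window held 1 match to CCGGAA, a pattern in 12.4% of 21751 promoters of 250 bases. The Erg window held 2 matches to TGACAG, found in 14.6% of promoters, and 1 to AGATAA, found in 9.6%. The Hoxa9 and Kit windows held none of the 5 patterns, of which TGATTNAT occurs in 2.56% and CACGTG in 6.26% of promoters. A match of letters is a description and does not show that a factor binds there.

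Hoxa9 (chr6:52200080-52208069, minus strand) encodes a homeodomain factor that sustains stem and progenitor cells and pairs with MEIS and PBX partners. Its normalized counts were 216, 181, 247, and 220 in MDSC, 134, 160, 184, and 170 with blank NPs, and 93.8, 87.8, 70.9, and 90.7 in CITED. All CITED libraries lay below all others, while the ranges of MDSC and MDSC-NP-Blk overlapped. Hoxa9 fell 2.52-fold in CITED against MDSC (log2 fold change -1.33, SE 0.151, adjusted p = 2.75e-09) and 1.89-fold against MDSC-NP-Blk (-0.92, SE 0.153, adjusted p = 1.71e-05). It was also the only one of the 10 that fell with blank NPs (-0.41, SE 0.141, adjusted p = 0.0181), and this test was no longer passed without MDSC replicate 3 or without MDSC-NP-Blk replicate 1 (-0.34 in either case).

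Meis1 (chr11:18829817-18969749, minus strand), which encodes the homeodomain partner of Hoxa9, had a different pattern. It stood at 73.7, 93.0, 56.0, and 61.2 normalized counts in MDSC, 102, 78.4, 65.5, and 86.3 with blank NPs, and 120, 84.2, 84.2, and 80.1 in CITED. The ranges of all groups overlapped. The log2 fold change was 0.37 (SE 0.213, adjusted p = 0.17) in CITED against MDSC and 0.15 (SE 0.213, adjusted p = 0.686) in CITED against MDSC-NP-Blk. Of its exon bases, 7.32% overlap exons on the opposite strand, whose reads cannot be told apart if strand was not used in counting.

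Hlf (chr11:90227221-90281761, minus strand) encodes a PAR-type leucine zipper factor known for its restriction to immature cells among blood cells. The MDSC libraries held 236, 146, 152, and 150 normalized counts, the MDSC-NP-Blk libraries 186, 131, 174, and 219, and the CITED libraries 56.3, 81.7, 72.0, and 60.8. The 2 groups without rapamycin overlapped, and CITED lay below both. Hlf fell 2.54-fold in CITED against MDSC (-1.34, SE 0.187, adjusted p = 1.98e-07) and 2.6-fold against MDSC-NP-Blk (-1.38, SE 0.188, adjusted p = 5.55e-07). Its value in MDSC-NP-Blk against MDSC was 0.04 (SE 0.171, adjusted p = 0.906). Replicate 1 of MDSC stood above the other MDSC libraries, and without it the value against MDSC was -1.14, which was still called.

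Bcl11a (chr11:24027941-24124123, plus strand), a zinc finger repressor needed for lymphoid progenitors and known for silencing fetal globin, had the largest fold change of the 10 in both comparisons of CITED. Its normalized counts were 159, 190, 141, and 166 in MDSC and 112, 144, 161, and 106 in MDSC-NP-Blk. The CITED libraries held 43.8, 59.8, 52.0, and 35.7. CITED did not overlap the other groups, which overlapped each other. The fall was 3.44-fold against MDSC (-1.78, SE 0.191, adjusted p = 9.37e-10) and 2.76-fold against MDSC-NP-Blk (-1.46, SE 0.194, adjusted p = 3.25e-07). With blank NPs the value was -0.32 (SE 0.172, adjusted p = 0.156), and it passed as lower (-0.58) when only library totals were used for scaling.

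Erg (chr16:95160028-95387452, minus strand) encodes an ETS factor that stem cells need for their upkeep. Its libraries held 808, 703, 751, and 841 normalized counts in MDSC, 747, 821, 878, and 776 with blank NPs, and 405, 510, 534, and 484 in CITED. Again CITED lay below both other groups without overlap. Erg fell 1.6-fold against MDSC (-0.68, SE 0.0866, adjusted p = 3.35e-08) and 1.67-fold against MDSC-NP-Blk (-0.74, SE 0.0869, adjusted p = 3.38e-08), under the fold limit for a call in both. In MDSC-NP-Blk against MDSC its value was 0.06 (SE 0.0837, adjusted p = 0.65), and it passed as lower (-0.21) with library totals only.

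Ikzf2 (chr1:69570373-69727004, minus strand) encodes Helios, an Ikaros family factor of stem cells and regulatory T cells. It stood at 467, 374, 379, and 435 normalized counts in MDSC and at 468, 386, 462, and 458 in MDSC-NP-Blk. The CITED libraries held 220, 227, 224, and 236, the tightest of the 10 genes in that group (CV 3.08%). CITED lay below the other groups, whose ranges overlapped each other. Ikzf2 fell 1.82-fold against MDSC (-0.87, SE 0.102, adjusted p = 6.62e-09) and 1.95-fold against MDSC-NP-Blk (-0.96, SE 0.102, adjusted p = 3.92e-09). Its canonical transcript, at 9.41 kb, is the longest of the 10. Corrected for length, its value was -0.56 against MDSC and -0.89 against MDSC-NP-Blk, and corrected for length and GC content -0.41 and -0.83, all of which passed the test. With library totals only, Ikzf2 was called lower against MDSC (-1.14), and without MDSC-NP-Blk replicate 2 it was called lower against MDSC-NP-Blk (-1.03). In MDSC-NP-Blk against MDSC the value was 0.09 (SE 0.0967, adjusted p = 0.479), it passed as higher with the length correction (0.33), and its sign turned with library totals only (-0.17).

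**Figure D3:**
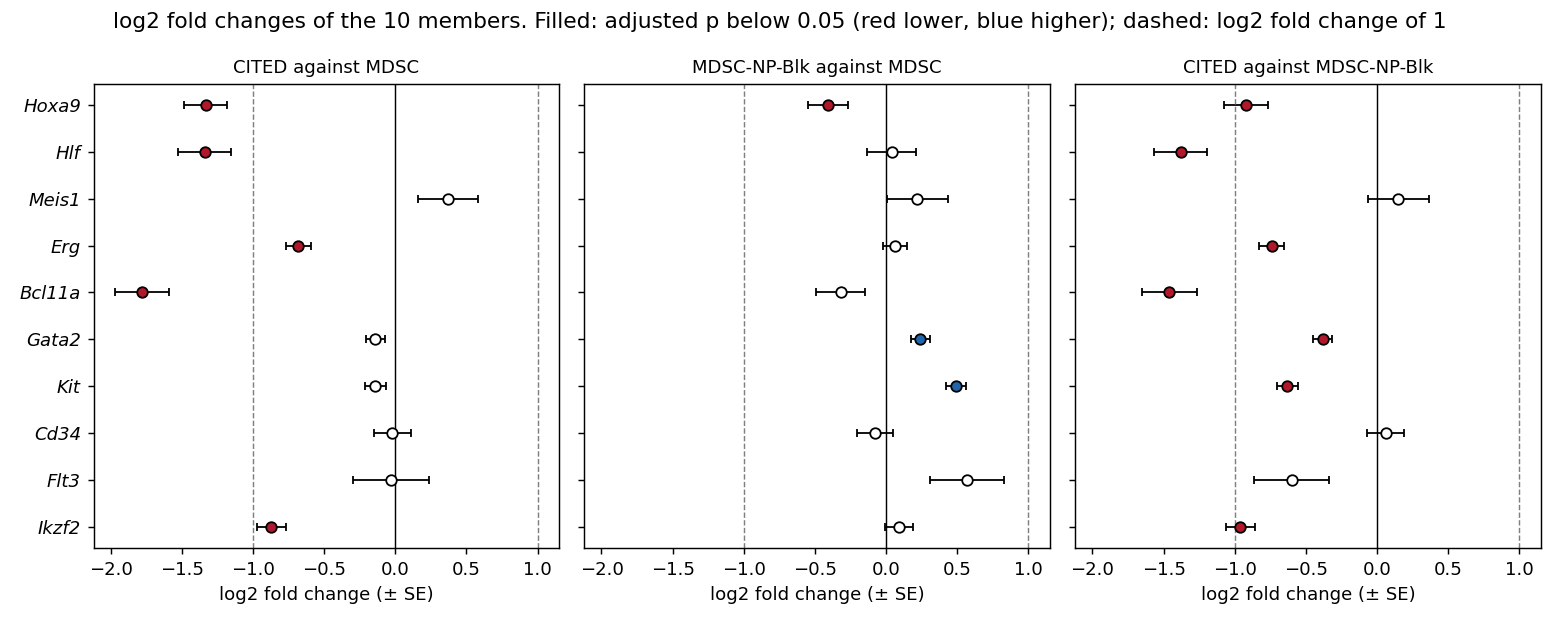
Log2 fold changes (horizontal axis, points with SE bars) of the 10 genes in the 3 comparisons; filled points passed the test and dashed lines mark a log2 fold change of 1 in size. In CITED against MDSC-NP-Blk, 7 points are filled, all to the left of 0, and Bcl11a lies farthest left at -1.46.

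Gata2 (chr6:88170559-88184018, plus strand) encodes a GATA factor of stem cells, mast cells, and basophils. Its normalized counts were 1195, 1266, 1203, and 1261 in MDSC, 1547, 1435, 1488, and 1365 with blank NPs, and 1073, 1055, 1108, and 1242 in CITED. The MDSC-NP-Blk libraries were all above the others, and MDSC and CITED overlapped. Gata2 rose in MDSC-NP-Blk against MDSC (0.24, SE 0.0662, adjusted p = 0.00298), a direction that turned with library totals only (-0.02), and it did not pass after correction for length and GC content (0.14). It fell in CITED against MDSC-NP-Blk (-0.38, SE 0.0669, adjusted p = 3.96e-05). In CITED against MDSC the value of -0.14 (SE 0.067, adjusted p = 0.105) missed the threshold, but it passed as lower with library totals only (-0.41), with the length correction (-0.15), with that for length and GC content (-0.33), and without CITED replicate 4 (-0.19).

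Kit (chr5:75735576-75817404, plus strand) encodes the receptor tyrosine kinase for stem cell factor, carried by stem cells, early progenitors, and mast cells. It stood at 1208, 1176, 1450, and 1228 normalized counts in MDSC and at 1640, 1695, 1974, and 1783 in MDSC-NP-Blk. The CITED libraries held 1068, 1144, 1115, and 1258. As for Gata2, the MDSC-NP-Blk libraries lay above all others, whereas MDSC and CITED overlapped. Kit rose 1.4-fold with blank NPs (0.49, SE 0.0727, adjusted p = 1.09e-06), or by 0.22 on the log2 scale with library totals only, and was 1.55-fold lower in CITED than in MDSC-NP-Blk (-0.63, SE 0.0736, adjusted p = 2.9e-08). Against MDSC the CITED value was -0.14 (SE 0.0739, adjusted p = 0.127), -0.42 and past the test with library totals only, and 0.0 after correction for length and GC content.

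Flt3 (chr5:147267551-147337483, minus strand), the receptor tyrosine kinase of multipotent and dendritic cell progenitors, was among the lowest of the 10 in MDSC, together with Meis1. The libraries held 34.5, 53.2, 48.7, and 65.2 normalized counts in MDSC, 78.9, 69.5, 74.9, and 74.6 with blank NPs, and 57.5, 24.4, 62.0, and 52.1 in CITED. All MDSC-NP-Blk libraries lay above all others, yet the test was not passed in MDSC-NP-Blk against MDSC (0.57, SE 0.261, adjusted p = 0.0879) or in CITED against MDSC-NP-Blk (-0.6, SE 0.265, adjusted p = 0.114). The first of these passed without MDSC replicate 4 (0.71). Its libraries held 20 to 101 counts.

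Cd34 (chr1:194621029-194647172, plus strand) encodes a sialomucin used to mark progenitors, and it also occurs on mast cells and endothelium. It stood at 222, 231, 215, and 205 normalized counts in MDSC, 225, 212, 203, and 187 with blank NPs, and 248, 165, 254, and 194 in CITED. All groups overlapped, and the spread was widest in CITED. Its log2 fold changes were -0.02 (SE 0.129), -0.08 (SE 0.128), and 0.06 (SE 0.13) for CITED against MDSC, for blank NPs against MDSC, and for CITED against blank NPs, with adjusted p of 0.925, 0.675, and 0.839. With library totals only, it passed as lower in MDSC-NP-Blk against MDSC (-0.34).

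The ligands of both receptor kinases were measured too. Kitl, which encodes stem cell factor, had 1 to 15 counts per library in MDSC, 0 to 2 with blank NPs, and 0 to 4 in CITED, and no fold change is given at these counts. Flt3l, the ligand of Flt3, stood at 117, 98.7, 127, and 121 normalized counts in MDSC, 216, 184, 202, and 209 with blank NPs, and 221, 206, 195, and 183 in CITED. Both NP groups lay above MDSC and overlapped each other. Flt3l rose with blank NPs (0.8, SE 0.132, adjusted p = 5.77e-06) and with rapamycin NPs (0.79, SE 0.133, adjusted p = 5.23e-06), and CITED against MDSC-NP-Blk gave -0.01 (SE 0.129, adjusted p = 1.0). It shares 63.9% of its 31-base words with the predicted gene Gm45713, so its counts are uncertain.

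A further 36 genes of stem and early progenitor cells were counted beside the 10. In CITED against MDSC, 3 were called higher and 6 lower (7 and 11 passed the test), and the median log2 fold change was -0.34. In MDSC-NP-Blk against MDSC, 1 was called higher and 0 lower (9 and 5 passed), with a median of -0.06. In CITED against MDSC-NP-Blk, 1 was called higher and 3 lower (2 and 11 passed), with a median of -0.23. The list moved in both directions. Procr, the protein C receptor used to mark stem cells, averaged 541 ± 37.2 (SD, n = 4) normalized counts in MDSC, 1073 ± 188 with blank NPs, and 2386 ± 167 in CITED, a rise of 2.14 (SE 0.0887, adjusted p = 2.73e-20) in CITED against MDSC. Gfi1, a repressor of stem cells and of granulocyte precursors, averaged 1656 ± 140, 906 ± 73.5, and 379 ± 57.8 in the same order and fell by 2.12 (SE 0.0903, adjusted p = 5.75e-20). Myb, a driver of progenitor growth, averaged 1499 ± 77.4, 764 ± 98.6, and 382 ± 62.5 and fell by 1.97 (SE 0.096, adjusted p = 1.93e-18). For all 3, the middle place of MDSC-NP-Blk was past the test against either other group.

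**Figure D4:**
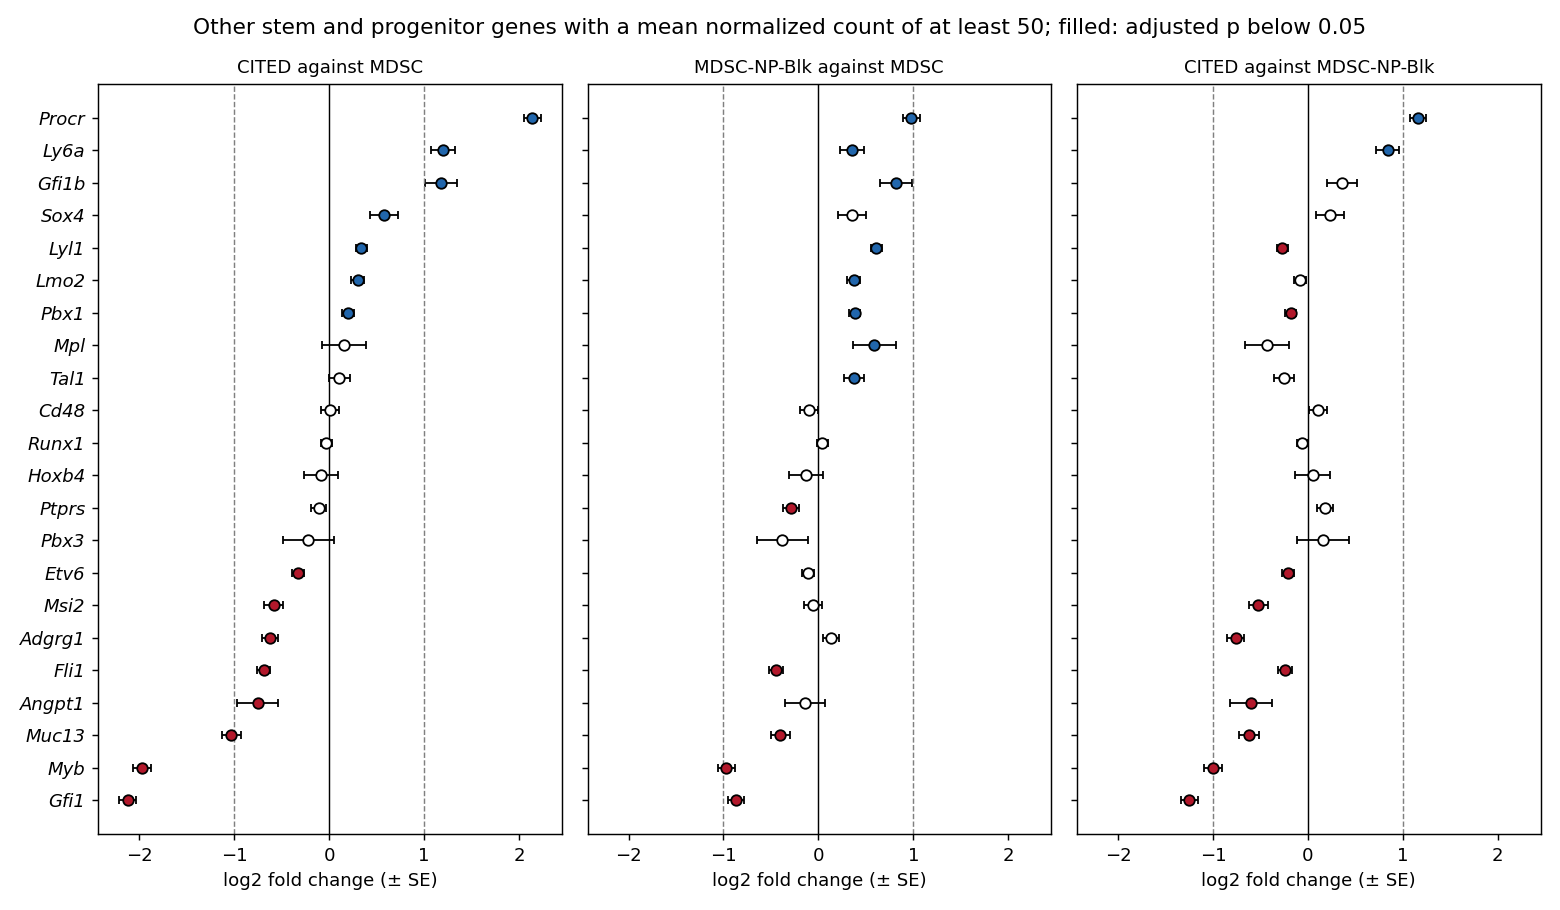
Log2 fold changes (horizontal axis, points with SE bars) of the 22 other stem and progenitor genes with a mean of at least 50 normalized counts, in the 3 comparisons; filled points passed the test, blue higher and red lower. Genes range from Procr at 2.14 to Gfi1 at -2.12 in CITED against MDSC.

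Markers of other cells moved with some of the 10 genes, and their part in the results was not tested. Of 13 tested mast cell and basophil genes, 0 passed as lower and 7 as higher in MDSC-NP-Blk against MDSC, whereas 8 passed as lower and 0 as higher in CITED against MDSC-NP-Blk (1 called higher in the first and 3 called lower in the second). The summed level of the list was 590 to 634 CPM in MDSC, 700 to 808 with blank NPs, and 411 to 430 in CITED. The means of Kit and Gata2 had the same order of groups. Their MDSC and CITED ranges overlapped, however, and neither gene passed the test between those groups. Against MDSC, CITED had 1 called higher and 1 lower (2 and 8 passed), the called lower gene being Ms4a2, a chain of the IgE receptor (-1.14, SE 0.13, adjusted p = 3.38e-09). The called higher gene was the tryptase Tpsb2, at means of 2.13, 9.95, and 12.5 normalized counts in MDSC, MDSC-NP-Blk, and CITED. The mast cell and basophil protease Cpa3 averaged 844 ± 22.9, 1060 ± 132, and 732 ± 47.7 (SD, n = 4) in the same order of groups, and the basophil protease Mcpt8 2468 ± 175, 2931 ± 174, and 1597 ± 98.4. Hdc, Prss34, Fcer1a, and Gata1 were likewise highest with blank NPs and lowest in CITED by their means. Mitf averaged 841 ± 59.4, 1095 ± 106, and 1223 ± 42.3, and it passed as higher in CITED against MDSC (0.54, SE 0.0743, adjusted p = 1.52e-07). Ms4a2 (543, 466, and 246), Slc18a2 (358, 343, and 236), and Il1rl1 (340, 325, and 272) had their highest means in MDSC. Mcpt4, a protease of connective tissue mast cells, was at 0 in all libraries, as was the receptor Mrgprb1. Summed over the 10 stem and progenitor genes, the level was 179 to 189 CPM in MDSC, 209 to 230 with blank NPs, and 138 to 152 in CITED, and most of these counts are from Kit, Gata2, and Erg.

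Genes of immature granulocytes and of dividing cells were mostly lower in both NP groups. Of 11 promyelocyte genes, 7 were called lower and 1 higher in CITED against MDSC (10 and 1 passed), 2 and 1 in MDSC-NP-Blk against MDSC (8 and 3 passed), and 7 and 0 in CITED against MDSC-NP-Blk (9 and 0 passed), with medians of -2.12, -0.47, and -1.33. Their summed level was 5091 to 5398 CPM, 4594 to 4737, and 3108 to 3325 in MDSC, MDSC-NP-Blk, and CITED. This sum includes Srgn, the gene called higher, at 23303 ± 722, 48869 ± 2310, and 48704 ± 1810 (SD, n = 4) normalized counts in that order. The rise of Srgn makes the fall of the sum smaller. Mpo, Elane, and Ctsg, which encode proteins of the primary granules, had log2 fold changes of -4.41, -3.27, and -2.7 in CITED against MDSC (adjusted p = 5.23e-31, 5.23e-31, and 1.14e-26). Of 18 genes of dividing cells, 16 were called lower in CITED against MDSC, 2 in MDSC-NP-Blk against MDSC, and 10 in CITED against MDSC-NP-Blk (18, 17, and 18 passed), with 0 higher and medians of -1.67, -0.71, and -1.02. Their summed level was 2382 to 2706, 1398 to 1650, and 748 to 786 CPM, in the same order of groups as Hoxa9. Rrm2, Top2a, and Rrm1, which serve DNA synthesis and chromosome separation, fell by 2.22, 2.15, and 2.0 in CITED against MDSC (adjusted p = 1.03e-24, 1.74e-24, and 1.01e-22).

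**Figure D5:**
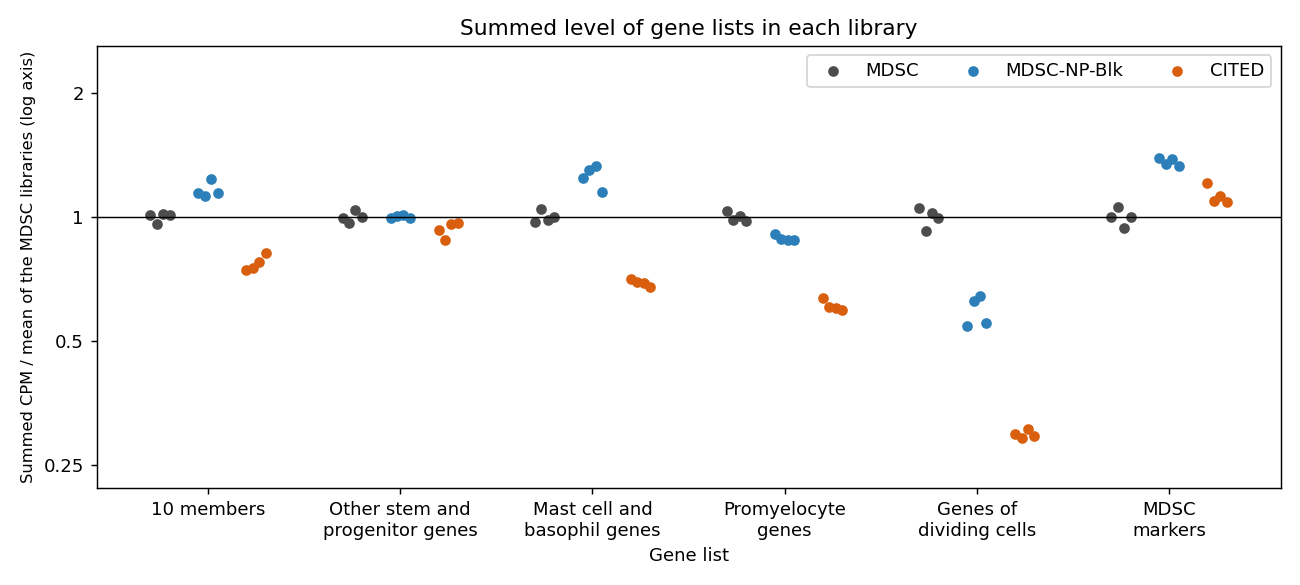
Summed CPM of 6 gene lists in each library, divided by the mean of the MDSC libraries (vertical axis, log scale); points are libraries. The 10 genes and the mast cell and basophil genes are highest in MDSC-NP-Blk and lowest in CITED, whereas promyelocyte genes and genes of dividing cells step down from MDSC through MDSC-NP-Blk to CITED. The promyelocyte sum includes Srgn, an abundant gene that rose with either NP.

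The remaining marker lists are given by their counts and sums. Of 15 MDSC markers, 3 were called higher and 2 lower in CITED against MDSC (8 and 4 passed). The 3 were the receptors Cd14 (2.97), Csf3r (1.54), and Fcgr3 (1.11). The 2 called lower were Ccr2 (-1.18), at means of 3574, 2243, and 1578 normalized counts in MDSC, MDSC-NP-Blk, and CITED, and Ly6c1 (-1.04), at 33.2, 41.1, and 16.2. In MDSC-NP-Blk against MDSC, 2 were called higher and 0 lower (13 and 1 passed), and in CITED against MDSC-NP-Blk 0 higher and 1 lower (4 and 7 passed). Their summed level was 28539 to 32133, 40369 to 42177, and 32944 to 36710 CPM in MDSC, MDSC-NP-Blk, and CITED. Of 16 dendritic cell markers, which include Flt3, 1 was called higher (Clec9a, 1.29) and 3 lower in CITED against MDSC (4 and 5 passed), and the summed level was 1140 to 1196, 1149 to 1188, and 1190 to 1265 CPM in MDSC, MDSC-NP-Blk, and CITED. Of 16 lymphoid markers tested, 0 were called higher and 6 lower (1 and 6 passed) in CITED against MDSC, among them Nkg7 (-2.28) and Cd79b (-1.97), and the summed level was 77.1 to 78.4, 72.5 to 80.7, and 74.6 to 79.2 CPM. Of 15 erythroid and megakaryocyte markers tested, 1 was called higher (Ppbp, 1.22) and 1 lower (Tfrc, -2.56), with 3 and 3 past the test and sums of 472 to 531, 436 to 476, and 401 to 433 CPM. Of 12 endothelial and stromal markers tested, 0 were called in either direction in CITED against MDSC (1 passed as higher and 3 as lower), with sums of 110 to 125, 121 to 135, and 90.7 to 97.2 CPM. Car1, Ncr1, and Cxcl12 of these lists were at 0 in all libraries.

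For each of the 10, the genes nearest in pattern were found among 10555 genes with a mean of at least 50 normalized counts, by the root mean square difference of log2 CPM over the 12 libraries after centering. Nearest to Hoxa9 were the kinetochore gene Spc25 (0.139), Depdc1b (0.142), and the integrin Itga6 (0.145). Nearest to Bcl11a were the ubiquitin ligase Nedd4 (0.222) and the mitosis genes Nuf2 (0.23) and Ncaph (0.238), and nearest to Ikzf2 were Ddb2 (0.133), Ube2c (0.133), and Ero1a (0.135). Erg was nearest to the growth factor Hgf (0.0894), Cyp11a1 (0.0984), and Agap1 (0.102), and Hlf to Gpx3 (0.227), Osbpl3 (0.241), and Plekha6 (0.245). Kit was nearest to Cytip (0.104), Satb1 (0.105), and Ccng2 (0.114), and Gata2 to Lmo4 (0.0658), Apobec3 (0.0675), and Rcsd1 (0.0688). Meis1 was nearest to Churc1 (0.128), Tmem222 (0.138), and Mrps26 (0.152), Cd34 to Dhx57 (0.0913), Nfyc (0.0975), and Tut1 (0.104), and Flt3 to Dynlt1b (0.275) and Sp140l1 (0.278). The points share libraries and group differences, so these are descriptions without a test.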

How the data were processed

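Poly(A) RNA of 12 libraries (3 groups of 4, taken from the titles) was analyzed. The deposited values are whole counts for each gene symbol, which the authors made with Salmon 1.4.0 on GENCODE transcripts of GRCm39 (release not stated) and tximport in R 4.3.2, neither normalized nor filtered. An entry with an empty symbol and 0.0% of counts was left out. Strandedness is not given in the sources used here.

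The 17676 symbols with at least 2 counts were tested in R 4.3.3 with edgeR 4.0.16: TMM factors, glmQLFit and glmQLFTest (robust off), group as the only term, 1 fit of all libraries, and Benjamini-Hochberg adjustment over all genes tested. SEs are the log2 fold change divided by the root of F. The biological coefficient of variation was 9.03%. A limit of 3 counts was 7.92e-06% to 1.46e-05% of a library; it covers counting error only. The study calls the replicates independent but does not say whether each came from separate mice, so p-values measure the spread between these libraries, which may be partly technical.

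The 10 genes, the other lists, and the rule for named genes were chosen with earlier results of these data known. Named are the 10 genes, Kitl and Flt3l, up to 3 called genes with the lowest p per list (CITED against MDSC, mean of at least 50 normalized counts), 4 MDSC markers, and the 3 genes nearest in pattern to each of the 10, of which 1 is not reported here. Srgn, Ccr2, Ly6c1, Ly6d, Siglech, genes named for standing at 0, and those in the closing part were chosen after their values were seen. The same holds for the mast cell and basophil genes other than Ms4a2. Lengths and windows are from GENCODE M39. Alternatives were DESeq2 1.42.0, RLE factors, library totals only, 2 other filters, the 8 libraries of a comparison, a replicate block, loess corrections (span 0.5) for length or for length and GC content, and each library left out. The steps were tested on simulated data. Figures used Python 3.11.15 and matplotlib 3.10.9.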

Additional observations from a re-analysis of the deposited data

Results flagged for a closer look

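In groups of 4 libraries, a library was marked when its gap to the nearest other library, divided by the range of the group, exceeded Dixon's 95% critical value. This was tested in 36 groups (10 genes, Kitl, and Flt3l in 3 groups each), where chance marks about 1 in 20. Hlf was high in replicate 1 of MDSC at 236 normalized counts, against 146 to 152 in the other MDSC libraries. Meis1 was high in replicate 1 of CITED at 120, against 80.1 to 84.2. Ikzf2 was low in replicate 2 of MDSC-NP-Blk at 386, the deepest library, against 458 to 468. Kitl stood at 2.54 in replicate 1 of MDSC-NP-Blk and at 5.0 in replicate 1 of CITED, with 0 counts in the other libraries of those groups. These marks rest on 2 and 4 counts. Where all other libraries stand at 0, any count is marked, so the rate of 1 in 20 does not apply to them. The causes were not tested.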

How the results depend on the processing

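The numbers of the 10 genes called were the same under all alternatives named above and with each library left out, except that library totals only gave 4 lower in CITED against MDSC (Ikzf2 added), that 3 were called lower in CITED against MDSC-NP-Blk without MDSC-NP-Blk replicate 2 (Ikzf2 added), and that the adjusted p alone gave 5 lower in CITED against MDSC, 1 lower and 2 higher in MDSC-NP-Blk against MDSC, and 7 lower in CITED against MDSC-NP-Blk. With library totals only, the median of all genes shifted by -0.27 in CITED against MDSC and by -0.26 in MDSC-NP-Blk against MDSC. In that fit the blank NP values turned to -0.22 (Hlf), -0.04 (Meis1), -0.21 (Erg), -0.02 (Gata2), and -0.17 (Ikzf2). With the length and GC correction, Kit in CITED against MDSC turned to 0.0. As single libraries were left out, values changed sign for Cd34 (-0.11 to 0.08) and Flt3 (-0.18 to 0.19) in CITED against MDSC, Hlf (-0.08 to 0.24) in MDSC-NP-Blk against MDSC, and Cd34 (-0.03 to 0.16) in CITED against MDSC-NP-Blk, none of which had passed.

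For the other 36 stem and progenitor genes, the adjusted p alone gave 11 lower and 7 higher in CITED against MDSC, 5 and 9 in MDSC-NP-Blk against MDSC, and 11 and 2 in CITED against MDSC-NP-Blk. Library totals only gave 1 higher in CITED against MDSC and 2 lower with 0 higher in MDSC-NP-Blk against MDSC. In the latter, 0 were called higher with the length correction, with the 8 libraries alone, and with the length and GC correction, which gave 1 lower. With single libraries left out, MDSC-NP-Blk against MDSC gave 0 to 1 lower and 0 to 2 higher, and CITED against MDSC-NP-Blk 1 to 3 lower. The causes were not tested.

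The replicate numbers in the titles gave no clear sign of pairing, although weak correlations cannot exclude it. The mean correlation of deviations for the same number was -0.0174 (MDSC and MDSC-NP-Blk), 0.0106 (MDSC and CITED), and 0.051 (MDSC-NP-Blk and CITED). For other numbers it was 0.00611, -0.0036, and -0.0166. In the same order, 0, 1, and 2 of 4 libraries correlated best with their own number. With a replicate block, 3 of the 10 genes were called lower in CITED against MDSC, 0 with blank NPs against MDSC, and 2 in CITED against MDSC-NP-Blk.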

Other observations

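Relatives of the 10 genes, chosen by family, differed among themselves. Of 22 tested, 0 were called higher and 2 lower in CITED against MDSC (6 and 4 passed). Of the Ikaros family, Ikzf1, the founding member, averaged 4295 ± 71.1 (SD, n = 4) normalized counts in MDSC, 2993 ± 377 with blank NPs, and 2433 ± 104 in CITED, a change of -0.82 (SE 0.0633) in CITED against MDSC. Ikzf3 (Aiolos) changed by -1.83 (SE 0.391) and Ikzf4 (Eos) by 0.47 (SE 0.112), and all 3 passed the test, with adjusted p of 3.65e-13, 0.000177, and 0.000615 in edgeR. Ets1, an ETS factor like Erg, averaged 3426 ± 160, 3069 ± 206, and 1638 ± 31.3 in the same order of groups and fell by 1.06 (SE 0.0567, adjusted p = 2.17e-17). Csf1r, a receptor kinase of the same class as Kit and Flt3 and the receptor of monocytes for CSF1, averaged 11287 ± 483, 21112 ± 680, and 22511 ± 260. It rose against MDSC with blank NPs (0.9, SE 0.0439, adjusted p = 7.07e-18) and with rapamycin NPs (1.0, SE 0.0439, adjusted p = 1.45e-19). The second value is rounded and lay just under the limit for a call.

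Among Hox genes other than Hoxa9, Hoxa5 averaged 13.8 ± 3.0 normalized counts in MDSC, 13.7 ± 4.52 with blank NPs, and 3.34 ± 3.16 in CITED, and Hoxa10 averaged 25.7 ± 9.18, 24.3 ± 6.29, and 11.2 ± 3.3. Both passed as lower in CITED against MDSC (-2.06, adjusted p = 0.019, and -1.18, adjusted p = 0.0318), at counts below those of Hoxa9. Hoxa7 averaged 28.7, 36.0, and 18.2 and did not pass in CITED against MDSC (-0.67, adjusted p = 0.164). Hoxb4 averaged 128, 117, and 120, with a value of -0.08 (adjusted p = 0.749) in that comparison. These genes were named after their values were seen.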
